A study of Mus musculus with 14 samples.

Results

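The genes described here are 10 genes of foam cells and scavenger receptors, chosen by name: Marco, Msr1, Cd36, Olr1, Cd68, Trem2, Gpnmb, Spp1, Cd9 and Fabp5. Their values were taken from every probe set whose platform annotation gives that symbol alone, and were averaged per gene. This gave 13 probe sets for 9 of the 10 genes, of 22180 genes and 33793 probe sets in all. Spp1 (osteopontin) was not analysed here, because no probe set is annotated with it. Expression was measured on arrays in male ApoE/LTbR-double deficient mice (double-deficient, titled KO) and in their ApoE-deficient littermates (titled WT), so that every animal lacked apolipoprotein E and the groups differed in the lymphotoxin beta receptor. All mice received a Western type diet for 4 weeks from 8 weeks of age and were 12 weeks old. The aorta groups were 4 double-deficient and 4 ApoE-deficient samples of aorta with the perivascular fat attached. The blood groups were 3 double-deficient and 3 ApoE-deficient preparations of CD115+ cells, which were isolated with magnetic beads after Ficoll centrifugation. CD115 is the receptor for macrophage colony-stimulating factor, borne by blood monocytes. In ApoE-deficient CD115+ replicates 3 and 4 the RNA came from a pool of 2 littermate samples each. The labels do not say where in the gene the receptor is deleted, nor whether the aortas and the blood came from the same mice. The p-values measure the spread between these samples.

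Scavenger receptors are surface proteins that bind modified lipoproteins, dying cells and microbes. Unlike the LDL receptor, several of them are not shut down by the cholesterol they bring in, so that macrophages of the artery wall which use them fill with cholesterol ester droplets and become foam cells. Trem2, Gpnmb, Spp1, Cd9 and Fabp5 are widely used to mark lipid-laden macrophages in plaques and in fat, where Trem2 acts as a lipid-sensing receptor. Many of these genes are also active in other cells of these samples: Cd36 and Fabp5 in fat and in endothelium, and Cd9 in platelets.

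Values are on a log2 scale and were centred, so that 0 is the median of a probe set within a tissue and levels can be compared neither between genes nor between tissues. The rounding of the values gives a coarse bound on the level before centring, if it was stored as 32-bit numbers. It was read from values under 0.4 in size, on at least 4 arrays, and does not cover arrays farther from the median. In aorta Gpnmb, Cd36, Cd68, all 4 Fabp5 probe sets and 1 of 2 Cd9 probe sets had a log2 signal of at least 8. That bound holds for the aorta arrays that were read, and 16.6% of all probe sets with 1 gene symbol reached it. Some arrays were not read, among them the lowest of Gpnmb (ApoE-deficient replicate 2, -0.60) and of Cd68 (double-deficient replicate 2, -0.51). Trem2, Msr1 and Olr1 were below 8 on at least 1 aorta array, and no bound could be read for Marco there. On the CD115+ arrays that were read Cd36, Cd68 and 3 of the 4 Fabp5 probe sets were at 8 or more, against 9.66% of all. Trem2, Gpnmb, Msr1, Marco and Olr1 were not. A match can also arise by chance, more easily the fewer arrays were read. In aorta Myh11 and Acta2 of smooth muscle and Adipoq of fat cells were at 8 or more on every array that was read. Csf1r, the gene of CD115, was at 8 or more on the CD115+ arrays read, which leaves out double-deficient replicates 1 (-0.62) and 3 (1.29). So were, on the arrays read, 7 of 9 measured white adipocyte markers, 5 of 7 fibroblast markers and 4 of 7 smooth muscle markers. These are cell types that a blood preparation should lack. The origin of that signal was not tested.

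Ltbr itself had values of -0.98, -1.10, -1.29 and -0.49 in double-deficient aortas, against 0.63, 0.49, 0.70 and 0.89 in ApoE-deficient aortas. The groups did not overlap in either tissue, and the difference was -1.64 (SE 0.17) in aorta and -0.72 (SE 0.18) in CD115+ cells, in the direction of the labels. The position of its probe set relative to the deletion is not in the labels, so what signal remains has no known meaning. Its difference did not pass the threshold (adjusted p = 0.0679 and 0.976, limma). Over all genes 1 passed the adjusted threshold of 0.05 in aorta (Ly6d, a gene of early B cells and epithelium, named because it was the only one, at -3.54 with adjusted p = 0.0495, limma), 0 in CD115+ cells and 0 for the difference between tissues. At an unadjusted p under 0.05 in limma the counts were 1713, 974 and 1530. The SD of an array's values was 0.267 to 0.464 in aorta, against 0.134 to 0.249 in the blood preparations. In aorta, ApoE-deficient replicate 3 stood apart from the other 3 by its low lymphocyte markers. In CD115+ cells, double-deficient replicate 2 had the highest platelet, neutrophil, B cell and T cell marker means, and double-deficient replicate 1 the lowest mean of Ly6C-high monocyte markers (-1.14).

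The promoters of 4 members are shown because the results below turn on these genes: Marco had the largest difference in aorta, Olr1 the largest in CD115+ cells, and Trem2 and Gpnmb varied alike over the aorta arrays. Each is the RefSeq window on GRCm38.p6 from 250 bases before to 50 bases after the start of transcription, written 5′ to 3′ on the strand of the gene. Capitals mark matches, on either strand, to the E-box CACGTG, the M-box CATGTG, the PU.1 core GAGGAA, the AP-1 site TGANTCA and the TATA box TATAAA. Windows were found for 8 of the 10 genes, all but Msr1 and Fabp5.
Marco (chr1:120504975-120505274, minus strand): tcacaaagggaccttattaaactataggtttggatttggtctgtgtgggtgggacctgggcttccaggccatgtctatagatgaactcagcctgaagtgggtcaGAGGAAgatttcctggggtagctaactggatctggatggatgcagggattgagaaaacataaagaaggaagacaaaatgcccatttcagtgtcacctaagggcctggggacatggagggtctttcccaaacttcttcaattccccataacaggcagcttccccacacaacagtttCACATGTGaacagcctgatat
Olr1 (chr6:129507116-129507415, minus strand): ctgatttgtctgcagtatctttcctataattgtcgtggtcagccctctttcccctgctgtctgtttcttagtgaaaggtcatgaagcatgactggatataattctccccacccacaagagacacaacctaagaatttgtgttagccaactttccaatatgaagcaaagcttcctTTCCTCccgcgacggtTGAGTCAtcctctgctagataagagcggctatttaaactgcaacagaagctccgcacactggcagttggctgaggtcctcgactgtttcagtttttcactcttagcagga
Trem2 (chr17:48346151-48346450, plus strand): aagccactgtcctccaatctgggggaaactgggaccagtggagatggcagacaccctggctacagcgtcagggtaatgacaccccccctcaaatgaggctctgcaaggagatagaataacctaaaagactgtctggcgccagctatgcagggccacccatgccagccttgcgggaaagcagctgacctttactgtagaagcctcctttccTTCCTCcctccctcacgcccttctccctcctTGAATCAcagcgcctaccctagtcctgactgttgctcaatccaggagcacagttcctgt
Gpnmb (chr6:49036268-49036567, plus strand): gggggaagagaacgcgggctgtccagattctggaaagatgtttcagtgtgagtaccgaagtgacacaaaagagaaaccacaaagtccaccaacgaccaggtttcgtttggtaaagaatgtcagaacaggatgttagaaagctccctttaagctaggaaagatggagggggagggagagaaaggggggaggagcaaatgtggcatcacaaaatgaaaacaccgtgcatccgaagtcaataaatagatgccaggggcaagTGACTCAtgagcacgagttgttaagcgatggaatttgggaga

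The AP-1 letters, the site of Fos and Jun factors, occurred in the windows of Trem2, Gpnmb, Olr1 and Cd68, in Cd68 at 2 places, while 7.81% of 32851 windows of this length hold them. The PU.1 core, the site of a factor that sets the myeloid lineage, occurred in the windows of Trem2, Marco, Olr1, Cd68 and Spp1, against 28.3% of all windows. In Marco the letters of the M-box were present on both strands at overlapping positions, from 29 to 36 bases after the first transcribed base. No E-box was found in the windows shown, against 7.15% of all windows, and M-box letters occur in 14.2% and TATA letters in 13.6%. A match of letters describes the window and is not a bound site.

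The comparison in aorta asked how these genes differed when the lymphotoxin beta receptor was lost. Of the 9 measured genes 0 passed the adjusted threshold in either direction, against 0.00451% of all genes. At an unadjusted p under 0.05 the count was 1 of 9 (Marco, lower), against 7.72% of all genes, and in 0 of 9 did the groups not overlap, against 4.3% of all genes. Differences were positive for 5 of 9, against 52.8% of all genes, with a median of 0.059, and the median over all genes was 0.0083. With 1 array left out the median of the members was -0.0063 to 0.093, the negative value without double-deficient replicate 1. In bulk samples such as these, fewer cells of a type and less RNA per cell cannot be told apart.

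**Figure D1:**
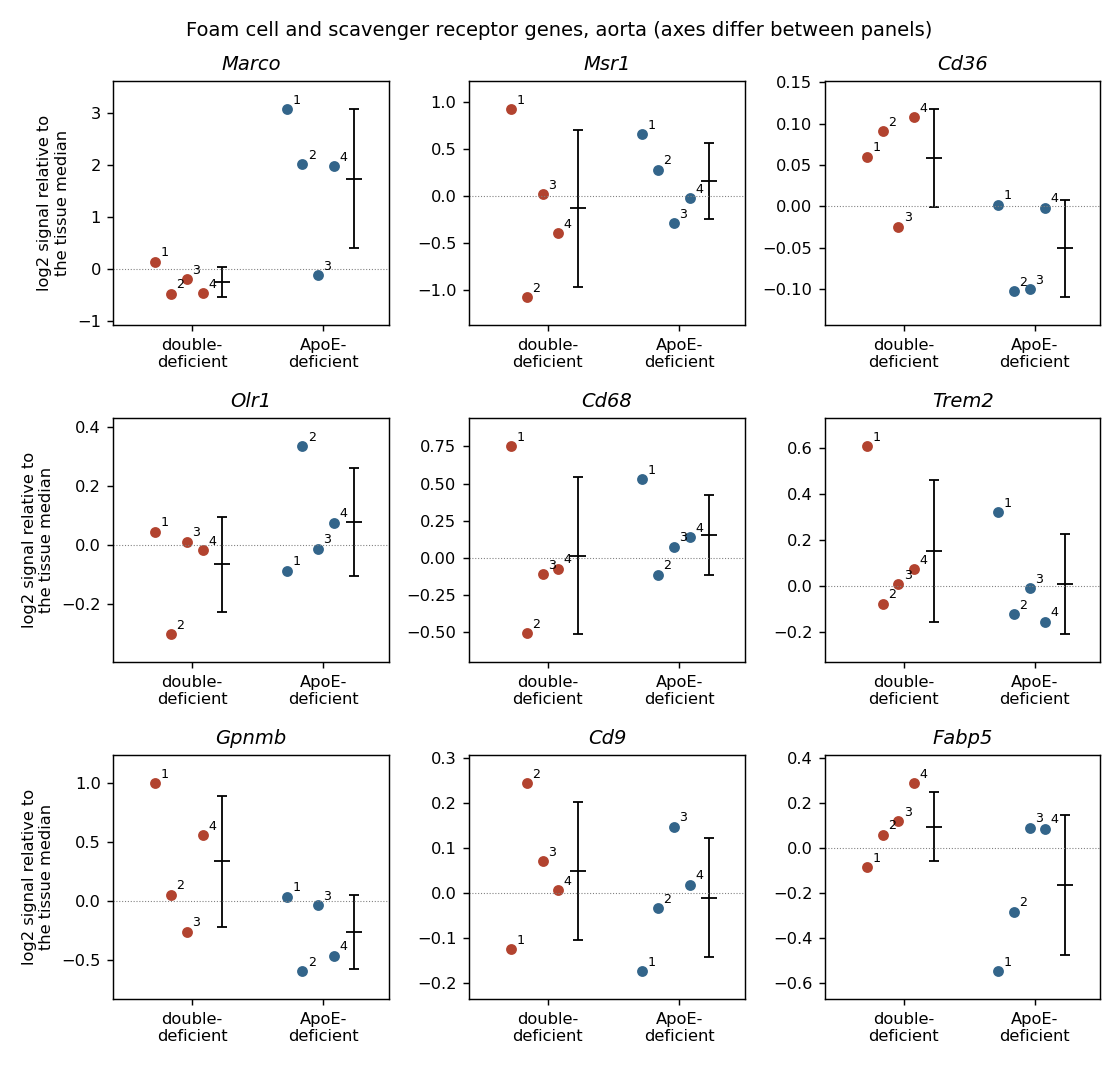
Log2 signal of 9 foam cell and scavenger receptor genes relative to the aorta median (vertical axes, which differ between panels), in 4 double-deficient and 4 ApoE-deficient aortas. Points are arrays labelled with their replicate number, and the bar beside each group is the mean ± SD. Marco separates 3 ApoE-deficient arrays, at 1.98 to 3.07, from the other 5, and the groups overlap for every gene.

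Marco, a class A scavenger receptor of macrophages in the marginal zone of the spleen, in lymph nodes and in the lung, differed most. Its values were 0.13, -0.49, -0.20 and -0.47 in double-deficient aortas, against 3.07, 2.01, -0.13 and 1.98 in ApoE-deficient aortas. ApoE-deficient replicates 1, 2 and 4 lay far above all double-deficient arrays, and ApoE-deficient replicate 3 lay within their range. Means were -0.26 ± 0.29 in double-deficient and 1.73 ± 1.34 in ApoE-deficient aortas (SD, n = 4 each), a difference of -1.99 (SE 0.60, adjusted p = 0.507, limma). This is 3.96-fold lower, with a 95% interval of the log2 difference of -3.38 to -0.60. The exact two-sided permutation test gave p = 0.0571, where 4 against 4 arrays allow no less than 0.0286. Without ApoE-deficient replicate 3 the difference was -2.61 and passed the threshold (adjusted p = 0.035, limma), in a fit where 0.311% of genes fell and 0.0225% rose. Without any 1 of the other 7 arrays the difference was -2.12 to -1.54 and did not pass.

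Lymphocyte markers had a pattern over the arrays close to that of Marco. The mean of 9 measured B cell markers was -0.43, -0.45, -0.15 and -0.18 in double-deficient aortas, against 2.30, 2.34, -0.19 and 1.51 in ApoE-deficient aortas. For 9 measured T cell markers it was -0.25, -0.42, -0.77 and -0.94 in double-deficient aortas, against 1.12, 1.35, 0.040 and 0.76 in ApoE-deficient aortas. The 3 arrays high in Marco were thus the 3 highest in both lists, and replicate 3 of the ApoE-deficient group was low or near 0 in all. In the T cell list, unlike in Marco and the B cell list, that replicate still lay above every double-deficient array. Within either list 0 of 9 markers passed the adjusted threshold, and 8 of 9 were lower at an unadjusted p under 0.05, against 3.81% of all genes. The macrophage marker mean did not follow this pattern, with 0.40, -0.28, 0.056 and -0.091 in double-deficient aortas, against 0.40, -0.074, -0.16 and 0.27 in ApoE-deficient aortas. Of its markers, Lyve1 and Timd4 had ApoE-deficient replicates 1, 2 and 4 above all double-deficient arrays, and the other measured ones did not. Lyve1 was at -0.16, -0.55, 0.16 and -0.39, against 0.17, 0.62, -0.29 and 0.74. Clec4n, of lipid-associated macrophages, was at 0.73, -0.91, -0.98 and -1.05, against 1.90, 1.18, -0.73 and 1.18. Both were chosen after their values were seen. Because Marco split into 3 high and 5 low arrays, no correlation of its own over the 8 is given. The part of lymphocyte content in the Marco difference was not tested.

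**Figure D2:**
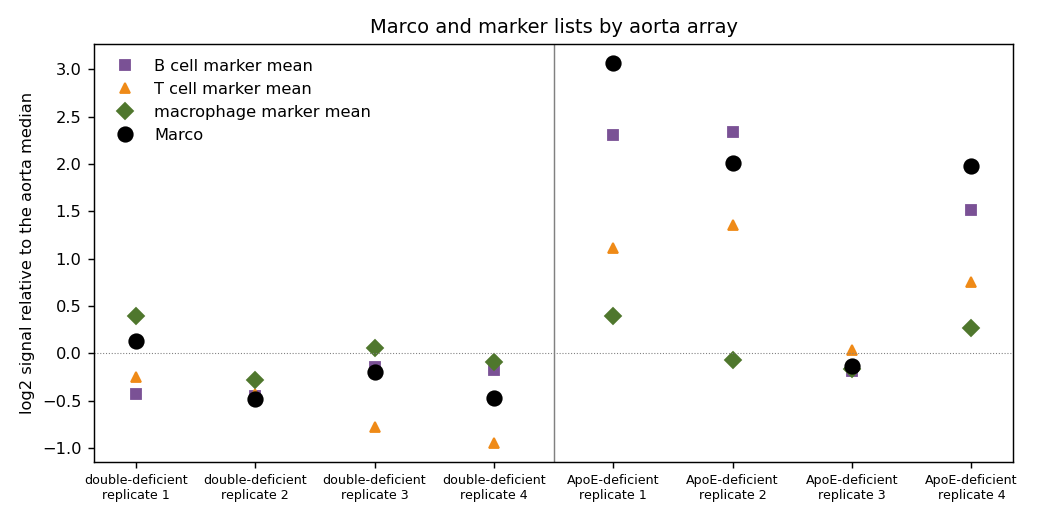
Log2 signal of Marco and means of the B cell, T cell and macrophage marker lists (vertical axis, relative to the aorta median) on each of the 8 aorta arrays, double-deficient on the left and ApoE-deficient on the right. Marco and both lymphocyte lists are high on ApoE-deficient replicates 1, 2 and 4 and not on replicate 3, while the macrophage list spans -0.16 to 0.40 in the ApoE-deficient group.

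The other scavenger receptors among the members showed no such separation. Msr1, the macrophage scavenger receptor A that takes up modified LDL, had 0.92, -1.07, 0.021 and -0.40 in double-deficient aortas, against 0.66, 0.28, -0.29 and -0.021 in ApoE-deficient aortas. Double-deficient replicates 1 and 2 were the highest and the lowest of all 8 arrays, so that the ApoE-deficient values lay inside the double-deficient range. Its difference of -0.29 (SE 0.41, adjusted p = 0.918, limma) had a 95% interval of -1.23 to 0.65. Cd68, a lysosomal glycoprotein of macrophages counted among class D scavenger receptors, had 0.75, -0.51, -0.11 and -0.075 in double-deficient aortas, against 0.53, -0.12, 0.075 and 0.14 in ApoE-deficient aortas. The same double-deficient arrays formed its extremes, and the difference was -0.14 (SE 0.26, adjusted p = 0.937, limma). Without double-deficient replicate 1 the differences were -0.64 for Msr1 and -0.39 for Cd68, and without double-deficient replicate 2 they were 0.025 and 0.032.

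Cd36, a class B receptor that takes up oxidised LDL and long-chain fatty acids, varied little. Its values were 0.060, 0.091, -0.025 and 0.11 in double-deficient aortas, against 0.0018, -0.10, -0.10 and -0.0018 in ApoE-deficient aortas. Of the 4 double-deficient arrays 3 were above all ApoE-deficient arrays, and the difference was 0.11 (SE 0.061, adjusted p = 0.721, limma). Its 95% interval ran from -0.033 to 0.25, the narrowest among the members. Olr1, the oxidised LDL receptor LOX-1 of endothelium and other vessel cells, had 0.045, -0.30, 0.012 and -0.018 in double-deficient aortas, against -0.086, 0.33, -0.012 and 0.077 in ApoE-deficient aortas. The lowest array was double-deficient replicate 2 and the highest ApoE-deficient replicate 2, with the rest between -0.086 and 0.077, and the difference was -0.14 (SE 0.12, adjusted p = 0.839, limma). It was -0.058 without ApoE-deficient replicate 2.

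Among the markers of lipid-laden macrophages Gpnmb, a lysosomal and surface glycoprotein, had the largest difference. Its values were 1.00, 0.054, -0.26 and 0.56 in double-deficient aortas, against 0.035, -0.60, -0.035 and -0.47 in ApoE-deficient aortas. Double-deficient replicates 1, 2 and 4 were above every ApoE-deficient array, replicate 2 only narrowly, while replicate 3 lay among them. The difference of 0.60 (SE 0.28, adjusted p = 0.663, limma) was 1.52-fold, with a 95% interval of -0.051 to 1.26. It was 0.38 without double-deficient replicate 1 and 0.80 without double-deficient replicate 3. Trem2 had 0.61, -0.077, 0.0086 and 0.075 in double-deficient aortas, against 0.32, -0.12, -0.0086 and -0.15 in ApoE-deficient aortas. Replicate 1 was the highest in each group, and the difference of 0.15 (SE 0.17, adjusted p = 0.896, limma) was -0.0063 without double-deficient replicate 1.

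Fabp5, a cytosolic carrier of fatty acids in macrophages, fat and endothelium, had -0.087, 0.058, 0.12 and 0.28 in double-deficient aortas, against -0.55, -0.28, 0.088 and 0.084 in ApoE-deficient aortas. ApoE-deficient replicates 1 and 2 were the lowest. The difference was 0.26 (SE 0.16, adjusted p = 0.751, limma), and 0.13 without ApoE-deficient replicate 1. Its 4 probe sets differed by 0.43 (SE 0.19), 0.30 (SE 0.29), 0.16 (SE 0.11) and 0.15 (SE 0.12), all positive, and Fabp5 has retrotransposed copies that can share signal. The last 2 probe sets had nearly the same value on every array. They are thus not separate measurements, although each counts in the gene mean. Cd9, a tetraspanin of many cell types, had -0.12, 0.24, 0.071 and 0.0070 in double-deficient aortas, against -0.17, -0.033, 0.15 and 0.019 in ApoE-deficient aortas. The groups lay over each other, and the difference was 0.059 (SE 0.10, adjusted p = 0.931, limma), with a 95% interval of -0.18 to 0.29.

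The comparison in CD115+ cells asked the same of circulating monocyte preparations. Here too 0 of 9 genes passed the adjusted threshold, as did 0% of all genes. At an unadjusted p under 0.05 the count was 1 of 9 (Msr1, lower), against 4.39% of all genes. The groups did not overlap for 2 of 9 (Olr1 higher, Msr1 lower), against 9.16% of all genes, of which 3.93% higher and 5.23% lower. Differences were positive for 3 of 9, against 44.7% of all genes, with a median of -0.22 and a median over all genes of -0.011. With 1 array left out the median of the members was -0.20 to -0.12, nearest to 0 without double-deficient replicate 3. With 3 against 3 arrays the exact two-sided permutation test cannot give less than 0.1.

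**Figure D3:**
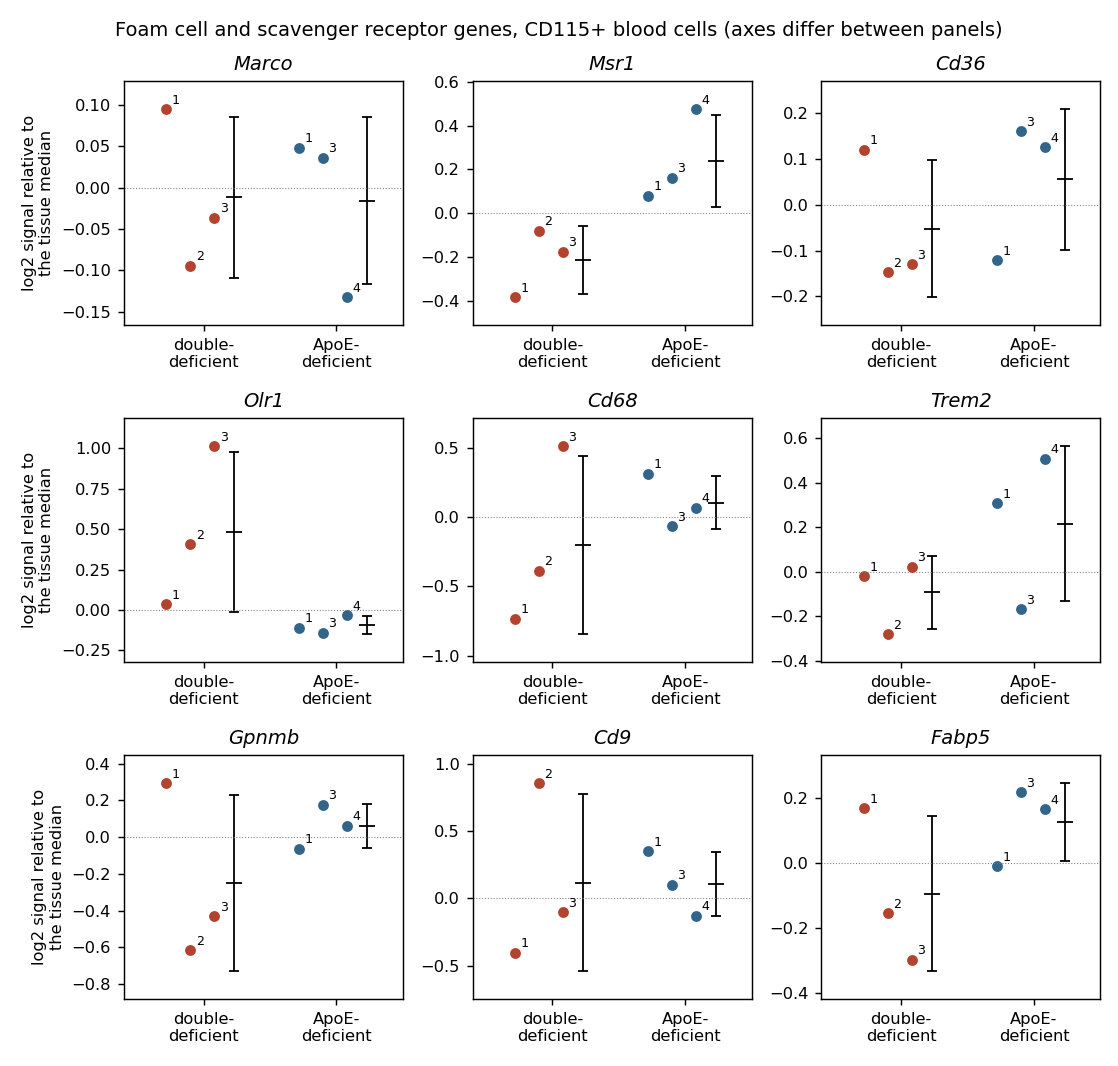
Log2 signal of 9 foam cell and scavenger receptor genes relative to the CD115+ median (vertical axes, which differ between panels), in 3 double-deficient and 3 ApoE-deficient preparations. Points are arrays labelled with their replicate number, and the bar beside each group is the mean ± SD. The groups separate for Msr1 and Olr1 and overlap for the other 7 genes.

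Msr1 was at -0.38, -0.079 and -0.18 in double-deficient preparations, against 0.079, 0.16 and 0.48 in ApoE-deficient preparations. Every double-deficient array was below every ApoE-deficient array. Means were -0.21 ± 0.15 in double-deficient and 0.24 ± 0.21 in ApoE-deficient preparations (SD, n = 3 each), and the difference was -0.45 (SE 0.13, adjusted p = 0.976, limma), or 1.37-fold lower (exact permutation p = 0.1). Markers of Ly6C-high monocytes, the inflammatory subset that feeds plaque macrophages, were ordered by group as well, with means of -1.14, -0.32 and -0.056 in double-deficient preparations, against 0.42, 0.017 and 0.49 in ApoE-deficient preparations. Of its 6 measured markers 6 were negative, where 44.7% of all genes were positive. At an unadjusted p under 0.05 there were 3 lower, against 2.33% of all genes, and 0 after adjustment. The macrophage marker mean was ordered by group too, at -0.30 to -0.036 in double-deficient and 0.077 to 0.15 in ApoE-deficient preparations. Both lists hold Fcgr1 and F13a1, so their orders are not separate observations. Fcgr1 alone was at -1.24, -1.05 and -0.054 in double-deficient preparations, against 0.39, 0.054 and 0.44 in ApoE-deficient preparations. A macrophage mean without the shared genes was not computed. For T cell markers the order was the opposite, at 0.020 to 0.71 in double-deficient and -0.31 to 0.0090 in ApoE-deficient preparations. The part of any of these cell types in the Msr1 difference was not tested.

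Olr1 was at 0.034, 0.41 and 1.01 in double-deficient preparations, against -0.11, -0.14 and -0.034 in ApoE-deficient preparations. All double-deficient arrays were above all ApoE-deficient arrays, by a wide margin in replicate 3, while double-deficient replicate 1 and ApoE-deficient replicate 4 lay close together. The difference was 0.58 (SE 0.24, adjusted p = 0.976, limma), 1.49-fold higher (exact permutation p = 0.1), and 0.31 without double-deficient replicate 3. That array also had the highest mean of Ly6C-low monocyte markers, the patrolling subset, at 0.94. That mean was -0.20 to 0.34 in double-deficient replicate 2 and the ApoE-deficient arrays, and -0.41 in double-deficient replicate 1. Over the 6 arrays Olr1 and that list had Pearson's r = 0.67 (exact permutation p = 0.143) and Spearman's rho = 0.086 (exact permutation p = 0.919). Without the 2 arrays farthest from the median of the list, r was -0.23.

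Cd68 was at -0.73, -0.39 and 0.51 in double-deficient preparations, against 0.31, -0.067 and 0.067 in ApoE-deficient preparations. The double-deficient arrays held both extremes, in the same order as their Ly6C-low marker means, and the difference was -0.31 (SE 0.32, adjusted p = 0.976, limma). Without double-deficient replicate 3 it was -0.66, and without double-deficient replicate 1 it was -0.043. Cd9 was at -0.40, 0.85 and -0.10 in double-deficient preparations, against 0.35, 0.10 and -0.13 in ApoE-deficient preparations. It was high in double-deficient replicate 2, where the mean of 8 platelet markers was 1.53, while in the other preparations that mean was -0.56 to 0.33. The Cd9 difference was 0.0077 (SE 0.34, adjusted p = 0.999, limma), or -0.36 without double-deficient replicate 2. Of its 2 probe sets 1 carried this variation (SD 0.86 over the 6 arrays) and the other was nearly flat (SD 0.053).

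Gpnmb, Cd36 and Fabp5 shared a pattern in the blood preparations. Gpnmb was at 0.29, -0.62 and -0.43 in double-deficient preparations, against -0.063, 0.18 and 0.063 in ApoE-deficient preparations. Cd36 was at 0.12, -0.15 and -0.13 in double-deficient preparations, against -0.12, 0.16 and 0.13 in ApoE-deficient preparations. Fabp5 was at 0.17, -0.15 and -0.30 in double-deficient preparations, against -0.011, 0.22 and 0.17 in ApoE-deficient preparations. For each of them double-deficient replicate 1 was high and double-deficient replicates 2 and 3 were low. The differences were -0.31 (SE 0.24), -0.11 (SE 0.11) and -0.22 (SE 0.13), all with adjusted p = 0.976 in limma. With 1 array left out the Gpnmb difference was -0.58 to -0.13, the lowest without double-deficient replicate 1 and the highest without double-deficient replicate 2. That of Fabp5 was -0.35 to -0.12, the lowest without double-deficient replicate 1 and the highest without double-deficient replicate 3. That of Cd36 was -0.20 to -0.054, the lowest without ApoE-deficient replicate 1 and the highest without ApoE-deficient replicate 3. None of these passed the threshold. The fibroblast marker mean was also high in double-deficient replicate 1 and low in double-deficient replicates 2 and 3, at 0.20, -0.32 and -0.30 in double-deficient preparations, against -0.033, 0.14 and 0.095 in ApoE-deficient preparations. That of white adipocytes was 0.27, -0.33 and -0.27 in double-deficient preparations, against -0.068, 0.11 and 0.11 in ApoE-deficient preparations. The part of that signal in these values was not tested.

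Trem2 was at -0.022, -0.28 and 0.022 in double-deficient preparations, against 0.31, -0.17 and 0.51 in ApoE-deficient preparations, a difference of -0.31 (SE 0.19, adjusted p = 0.976, limma). ApoE-deficient replicate 3 lay inside the double-deficient range, and without it the difference was -0.50. Without ApoE-deficient replicate 4, the highest, it was -0.16. Marco, which had differed most in aorta, stayed within -0.13 and 0.095 on all 6 CD115+ arrays, with a difference of 0.0040 (SE 0.078) and a 95% interval of -0.19 to 0.20.

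**Figure D4:**
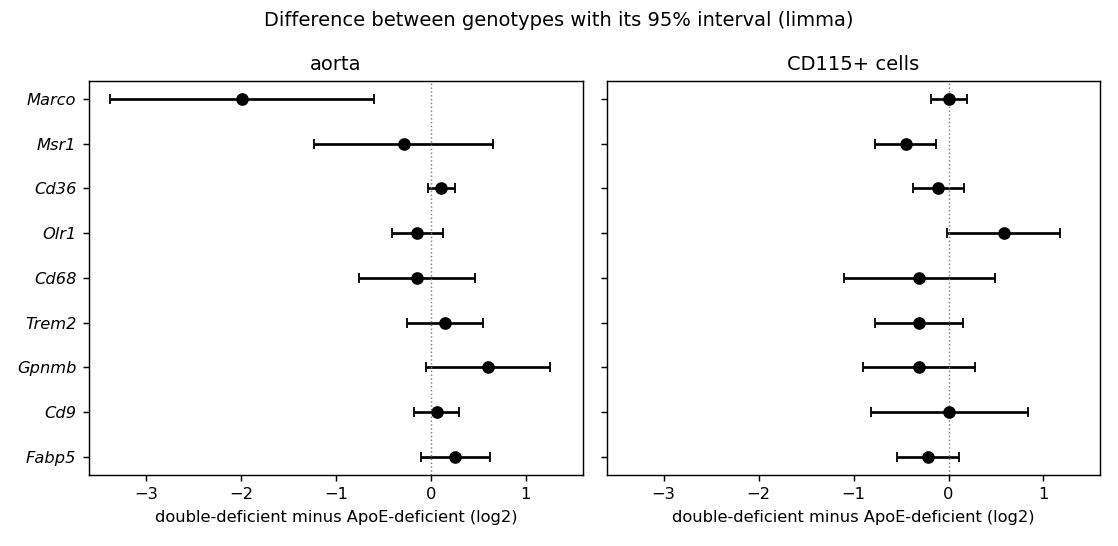
Double-deficient minus ApoE-deficient difference (horizontal axis, log2) of 9 foam cell and scavenger receptor genes in aorta (4 against 4 arrays) and in CD115+ cells (3 against 3). Points are limma estimates and bars their 95% intervals, not adjusted for the number of genes. The bar clears 0 for Marco in aorta and for Msr1 in CD115+ cells, and none of the 9 genes passed the threshold adjusted over all genes.

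Whether the genotype difference itself differed between the tissues was tested in 1 fit of all 14 arrays, as the aorta difference minus the CD115+ difference. In that fit both tissues share 1 estimate of the spread, although the aorta arrays had the larger SD. Of 9 genes 0 passed the adjusted threshold, as did 0% of all genes, and 3 had an unadjusted p under 0.05, against 6.9% of all (3.41% with a larger value in aorta and 3.49% with a smaller one). For Marco the value was -1.99 (SE 0.75, adjusted p = 0.651, limma). Without ApoE-deficient aorta replicate 3 it was -2.61 and passed (adjusted p = 0.0285, limma), where 0.135% of all genes did, 0.126% with a smaller and 0.00902% with a larger value in aorta. For Olr1 it was -0.72 (SE 0.26, adjusted p = 0.648, limma), the difference being negative in aorta and positive in CD115+ cells. For Gpnmb it was 0.91 (SE 0.41, adjusted p = 0.715, limma), with the opposite signs. Fabp5, Trem2 and Cd36 had values of 0.48, 0.45 and 0.22, and for Msr1, Cd68 and Cd9 they were 0.16, 0.16 and 0.051, all above an unadjusted p of 0.05 (adjusted p from 0.735 to 0.995, limma).

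The members did not vary as 1 group. Of the 36 pairs over the 8 aorta arrays 18 had a positive Pearson's r, with a median of -0.0025, and over the 6 CD115+ arrays 19 of 36 did, with a median of 0.045. In neither tissue did any pair pass after adjustment over the 36 pairs by r or by rho, and 6 and 4 pairs had an unadjusted exact permutation p of r under 0.05. The aorta pairs include those of Marco. Trem2 and Gpnmb went together in aorta (r = 0.81, exact permutation p = 0.0166, rho = 0.76, exact permutation p = 0.0368, adjusted p = 0.0999 and 0.33). Without the 2 arrays farthest from the Trem2 median their r was 0.81, and for deviations from the group means it was 0.83. Msr1 and Cd68 did as well (r = 0.89, exact permutation p = 0.00491, rho = 0.62, exact permutation p = 0.115, adjusted p = 0.0884 and 0.414), with r = 0.63 without the 2 arrays farthest from the Msr1 median. Msr1 and Cd9 went opposite ways (r = -0.91, exact permutation p = 0.00248, rho = -0.81, exact permutation p = 0.0218, adjusted p = 0.0884 and 0.33), with r = -0.81 without those 2 arrays.

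Set against 14 marker lists of cell types, 0 of 126 relations in either tissue passed after adjustment, by r or by rho. An unadjusted exact permutation p of r under 0.05 was found for 20 in aorta and 24 in CD115+ cells, and only some are given here. Cd68 in aorta lay along the mean of 13 macrophage markers (Pearson's r = 0.88 with exact permutation p = 0.00154, Spearman's rho = 0.76 with exact permutation p = 0.0368, and adjusted p of 0.138 and 0.356), with r = 0.69 without the 2 arrays farthest from the median of the list. Msr1 did likewise (Pearson's r = 0.85 with exact permutation p = 0.00575, Spearman's rho = 0.86 with exact permutation p = 0.0107, and adjusted p of 0.138 and 0.338), with r = 0.64 without the same 2. Replicate 1 of each genotype was highest in the macrophage list and in both genes, and double-deficient replicate 2 was lowest in all 3. Cd36 in aorta lay along the white adipocyte list (Pearson's r = 0.84 with exact permutation p = 0.00635, Spearman's rho = 0.76 with exact permutation p = 0.0368, and adjusted p of 0.138 and 0.356), with r = 0.74 without the 2 farthest arrays. It lay about as close to the endothelial list (Pearson's r = 0.82 with exact permutation p = 0.0189, Spearman's rho = 0.83 with exact permutation p = 0.0154, and adjusted p of 0.216 and 0.356), with r = 0.69 without the 2 farthest. Gpnmb lay along the endothelial list (Pearson's r = 0.83 with exact permutation p = 0.00575, Spearman's rho = 0.93 with exact permutation p = 0.00223, and adjusted p of 0.138 and 0.141), with r = 0.93 without the 2 farthest. In CD115+ cells Cd9 lay along the platelet list (Pearson's r = 0.98 with exact permutation p = 0.00278, Spearman's rho = 0.94 with exact permutation p = 0.0167, and adjusted p of 0.0875 and 0.21), with r = 0.93 without the 2 farthest. It also lay along the neutrophil list (Pearson's r = 0.94 with exact permutation p = 0.00694, Spearman's rho = 0.94 with exact permutation p = 0.0167, and adjusted p of 0.131 and 0.21), with r = 0.58 without the 2 farthest. Double-deficient replicate 2 was highest in both lists. Gpnmb lay along several lists there, the fibroblast list among them (Pearson's r = 0.99 with exact permutation p = 0.00139, Spearman's rho = 1.00 with exact permutation p = 0.00278, and adjusted p of 0.0875 and 0.0875), with r = 0.98 without the 2 farthest. The smooth muscle list was as close (Pearson's r = 0.99 with exact permutation p = 0.00139, Spearman's rho = 1.00 with exact permutation p = 0.00278, and adjusted p of 0.0875 and 0.0875), with r = 1.00 without the 2 farthest. So was the white adipocyte list (Pearson's r = 0.98 with exact permutation p = 0.00278, Spearman's rho = 0.94 with exact permutation p = 0.0167, and adjusted p of 0.0875 and 0.21), with r = 0.95 without the 2 farthest.

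**Figure D5:**
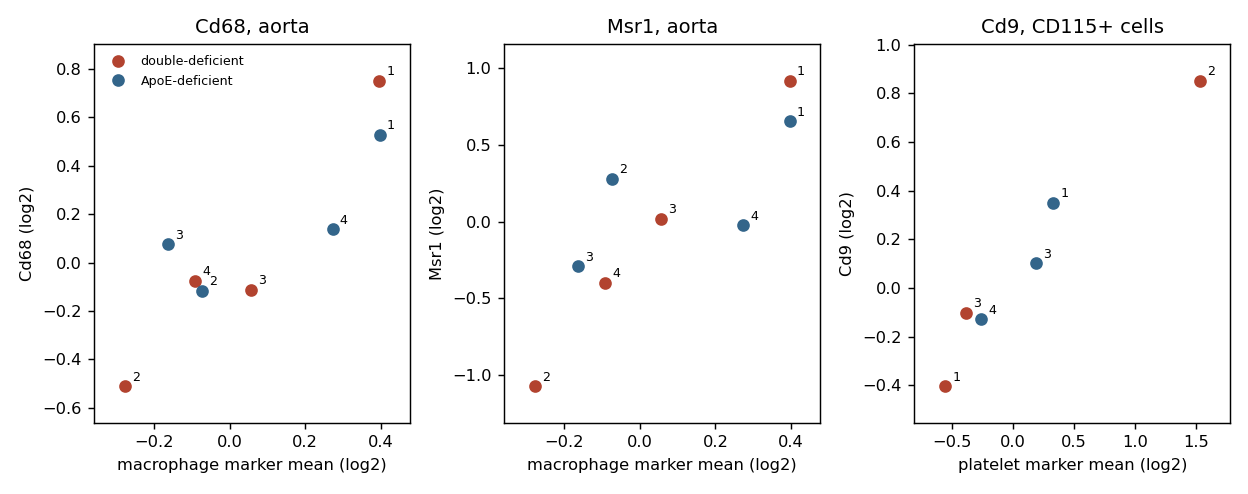
Log2 signal of Cd68 and Msr1 in aorta against the macrophage marker mean, and of Cd9 in CD115+ cells against the platelet marker mean (both axes log2, relative to the tissue median). Points are arrays labelled with their replicate number, coloured by genotype. Replicate 1 of both genotypes is at the upper end in the aorta panels, and double-deficient replicate 2 holds the upper end in the CD115+ panel.

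The genes most like each member were sought among 17075 named genes over the 8 aorta arrays, as a description. For Marco, whose arrays split in 2, none are given. For Fabp5 the closest were Mpc1, a subunit of the mitochondrial pyruvate carrier, and Acbd5 (r = 0.99 and 0.98), with 101 genes over 0.9. Cd36 was closest to Stard13 and to Cidec, a lipid droplet protein of fat cells (both r = 0.97). Gpnmb was closest to Fam71e2 and to Hey1, a target of Notch in vessels (both r = 0.97). The others were Fat2 and B3galt5 for Trem2, Aaas and Slc15a3 for Msr1, Spaca1 and Spaca4 for Cd68, Cfap221 and Reep4 for Olr1, and Lrp11 and Dgcr2 for Cd9, with r from 0.93 to 0.97. For these 5 members and for Cd36 and Gpnmb, 11 to 28 genes had r over 0.9. With 17075 genes and only 8 arrays, unrelated genes can also reach such values. How many would do so was not determined, so the neighbours named carry no meaning by themselves.

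Related genes of the same pathways were counted in lists chosen by function. Of 21 measured other scavenger and lipoprotein receptors, 0 passed the adjusted threshold in either tissue. In aorta 4 were higher and 1 lower at an unadjusted p under 0.05, against 3.91% and 3.81% of all genes. Lrp1, the large endocytic receptor for remnant particles, had a difference of 0.54 (SE 0.15, adjusted p = 0.466, limma). Its groups did not overlap, nor did those of Stab1, against 4.3% of all genes. For Vldlr, a receptor of triglyceride-rich lipoproteins, it was 0.52 (SE 0.14, adjusted p = 0.467, limma), for Stab1 0.24 (SE 0.079, adjusted p = 0.547, limma) and for Scarb2, a lysosomal relative of Cd36, 0.25 (SE 0.099, adjusted p = 0.619, limma). The gene that was lower was Stab2, a scavenger receptor of sinusoidal endothelium, and with Timd4 it had the array pattern of Marco; both were chosen after their values were seen. Stab2 had -0.047, 0.047, -0.26 and -0.11 in double-deficient aortas, against 1.40, 0.73, -0.061 and 0.34 in ApoE-deficient aortas, a difference of -0.70 (SE 0.28, adjusted p = 0.62, limma). Timd4, a receptor for dying cells on resident macrophages, had -0.46, -0.71, 0.29 and -0.38 in double-deficient aortas, against 2.66, 0.39, -0.29 and 1.30 in ApoE-deficient aortas, a difference of -1.33 (SE 0.59, adjusted p = 0.654, limma). For both, ApoE-deficient replicates 1, 2 and 4 lay above all double-deficient arrays and replicate 3 among them. In CD115+ cells 0 were higher and 1 lower at an unadjusted p under 0.05, against 2.06% and 2.33% of all genes. That was Timd4, at -0.21 (SE 0.067, adjusted p = 0.976, limma), followed by Mertk at -0.36, Axl at -0.29 and Scarf1 at -0.15. The median of this list was 0.069 in aorta and -0.12 in CD115+ cells.

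Of 21 genes of lipid-associated macrophages 0 passed in either tissue, and in aorta 2 were higher and 4 lower at an unadjusted p under 0.05, against 3.91% and 3.81% of all genes. Capg, an actin-capping protein of macrophages, differed by -0.42 (SE 0.11, adjusted p = 0.461, limma). Its groups did not overlap, nor did those of Ctsd, which was higher by 0.17, against 4.3% of all genes. Tyrobp encodes the adaptor DAP12 through which Trem2 signals, and Hcst the related adaptor DAP10. Tyrobp had 0.074, -0.62, -0.61 and -0.49 in double-deficient aortas, against 0.17, -0.030, 0.054 and 0.030 in ApoE-deficient aortas, a difference of -0.47 (SE 0.16, adjusted p = 0.547, limma). Hcst had -0.79, -2.08, -1.22 and 0.14 in double-deficient aortas, against 1.52, 0.88, -0.14 and 0.82 in ApoE-deficient aortas, a difference of -1.76 (SE 0.50, adjusted p = 0.475, limma). The groups overlapped through double-deficient replicate 1 for Tyrobp, and through double-deficient replicate 4 and ApoE-deficient replicate 3 for Hcst. Both adaptors are also used by natural killer cells, and Trem2 itself differed by 0.15. Lpl, the lipoprotein lipase, differed by 0.28 (SE 0.088, adjusted p = 0.533, limma). In CD115+ cells 0 of 21 were past an unadjusted 0.05, against 4.39% of all genes, and 3 of 21 were positive, against 44.7% of all genes (median -0.11), with Atp6v0d2 at -0.30, Lipa at -0.20, Syngr1 at -0.14 and Ctsl at -0.18.

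Of 10 measured genes of cholesterol esterification and efflux 0 passed in either tissue. In aorta 1 was higher at an unadjusted p under 0.05, against 3.91% of all genes, the apolipoprotein gene Apoc1 at 0.50 (SE 0.19, adjusted p = 0.595, limma). Next stood Nr1h3, the oxysterol receptor LXR alpha, at 0.24, the efflux pump Abca1 at 0.34 and the cholesterol ester hydrolase Nceh1 at -0.48. In CD115+ cells 2 were lower at that level, against 2.33% of all genes: Npc2, which moves cholesterol out of lysosomes, at -0.31 (SE 0.078, adjusted p = 0.976, limma), and Apoc1 at -0.34 (SE 0.10, adjusted p = 0.976, limma). For both the groups did not overlap, as was so for 5.23% of all genes in that direction. Abca1 was at 0.093 there, also without overlap, against 3.93% of all genes in that direction, and Nr1h3 was at -0.13.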

How the data were processed

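Signals of 33793 probe sets on 14 arrays were taken from the table the authors deposited, whose values were read as log2. Per the labels' protocols, 1 ng of RNA per sample was amplified and labelled with biotin. Which normalization and log base were used is not given in the sources used here. In all 33793 probe sets the median over the 8 aorta and over the 6 CD115+ arrays was 0 within 1e-06, so no filter on level was possible. A platform annotation gave 23521 probe sets 1 symbol, 1814 several and 8458 none. Only the first were used, averaged to 22180 genes.

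Genes were tested within each tissue, and for the difference between tissues over all 14 arrays, with limma 3.58.1 (lmFit, eBayes) in R 4.3.3, with Benjamini-Hochberg adjustment over all genes at 0.05, after a test on simulated data. Single genes and correlations had exact permutation tests, two-sided. Rounding steps of the 32-bit numbers (2 to the power -20 from 8 to 16, and -21 from 4 to 8) were read from values under 0.4 in size. At least 4 such values were required, and the other arrays were not bounded. Alternatives were array weights, robust eBayes, quantile normalization, the probe set of largest SD, a filter on SD, 1 fit of 14 arrays, a replicate block, and leaving out arrays or the pooled preparations. The members and lists were chosen with earlier results of these data known. Beyond the members, up to 4 genes of smallest p per list and the 2 genes most like each member other than Marco are named. Stab2, Timd4, Lyve1, Clec4n and Ctsd in aorta, and Fcgr1 and F13a1 in CD115+ cells, were added after their values were seen. The number of arrays limits the precision.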

Additional observations from a re-analysis of the deposited data

How the results depend on the processing

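The number of genes past the adjusted threshold in aorta was 1 in the reported fit, with a replicate block and after quantile normalization. It was 0 with array weights, with robust eBayes and with the probe set of largest SD per gene. It was 4 without the genes of lowest SD and 19 with 1 fit of all 14 arrays. That last fit has more residual degrees of freedom by construction, and it shares 1 estimate of the spread although the aorta arrays had the larger SD. With 1 array left out it was 0 to 74, the highest without ApoE-deficient replicate 3, and the members called in aorta were 0 to 1. For the difference between tissues the count was 0 to 58 with 1 array left out, the highest without double-deficient CD115+ replicate 1. In CD115+ cells it was 0 in every alternative run, and 974 genes were under an unadjusted 0.05 in the reported limma fit. The same-numbered arrays' deviations from the group means correlated at 0.17, -0.15, -0.14 and 0.064 in aorta, and at -0.47 and -0.29 in CD115+ cells. These few values cannot tell whether same-numbered samples were paired. The replicate block called 1 gene in aorta and 0 in CD115+ cells. Of 252 single-gene fits with 1 array left out 16 changed sign, and 2 passed the threshold, both for Marco without ApoE-deficient aorta replicate 3. Of 182 fits under the other alternatives 10 changed sign, 9 of them in CD115+ cells and 0 in aorta, and the others kept their direction and their side of the threshold.

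In CD115+ cells Marco, at 0.0040 in the reported fit, was -0.013 with the replicate block, -0.021 with array weights and -0.060 without the 2 pooled preparations. Cd9, at 0.0077, was -0.48 with the replicate block, -0.11 after quantile normalization, -0.015 with the probe set of largest SD, which is its second (used alone as an alternative chosen after seeing the data), and -0.24 without the pooled preparations. Cd36 was 0.069 without them. The tissue difference of Cd9 was -0.13 with array weights. The median of the members in aorta was -0.042 without the genes of lowest SD. That filter leaves the difference of each remaining gene unchanged, so this median moved because it was taken over fewer members. With 1 array left out, signs changed for these ranges: in aorta Trem2 -0.0063 to 0.25, Msr1 -0.64 to 0.025, Cd68 -0.39 to 0.032 and Cd9 -0.0057 to 0.12, in CD115+ cells Marco -0.054 to 0.045 and Cd9 -0.36 to 0.27, and between tissues Msr1 -0.19 to 0.48, Cd68 -0.099 to 0.52 and Cd9 -0.21 to 0.42. The cause of these sign changes was not tested. Centred values hold no signal over background, so how far dim probe sets limit these differences cannot be given.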
